A study of Oryza sativa with 12 samples.

Results

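SALT (OS01G0348900) is a rice gene for a small stress lectin, and it was taken as the row that the files name SALT, 1 of 37830 reference genes. It was chosen with its values in these libraries known, so its levels and differences are given as a description with no test, as are the genes picked for their likeness to it. RNA was sequenced from 14-day-old seedlings of rice cultivar ZH11, in 4 groups of 3 libraries that the series describes as biological repetitions. The groups were pkg seedlings given 10 µM Br-cGMP for 5 h, wild type seedlings given the same, and their controls. The controls were pkg seedlings (pkg control) and wild type seedlings (wild type control) at 0 µM for the same 5 h. Br-cGMP is an analogue of cyclic GMP, and pkg is labelled PKG-/-, a mutant of a cGMP-dependent protein kinase whose altered part the labels do not describe. All seedlings grew on dilute MS medium, and the labels say neither how many seedlings made up a library nor which organs were taken. The files give no gene the name PKG, so the mutant label was not checked here.

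The SALT protein is a mannose-binding lectin of the jacalin-related family, and the RefSeq gene table (assembly ASM3414082v1) lists it with the synonyms ML, MRL and salT. Its transcript is known in rice from roots and leaf sheaths, where it accumulates on salt, drought, abscisic acid and jasmonate. Jasmonate is made from fatty acids by lipoxygenase, allene oxide synthase, allene oxide cyclase and OPDA reductase enzymes. It is perceived by COI receptors, which remove TIFY (JAZ) repressors from transcription factors such as MYC2. Chitinases, diterpenoid phytoalexin enzymes and NAC and WRKY factors are other stress-inducible genes of rice.

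The gene lies on the minus strand of chromosome 1 at 13903285 to 13904626, in coordinates of the files, whose build is not stated, a span of 1342 bases with a listed feature length of 684 bases. The deposited values, whose unit is not stated, were read as FPKM, read numbers scaled by feature length and a constant of the library. Whole reads recovered from them ranged from 6667261 to 9438909 per library. Of the 12 libraries, 3 (pkg Br-cGMP 3, pkg control 3 and wild type control 3) were low in root transcripts: their mean log2(FPKM + 1) over LSI2, NIP2-1, PIP2-3 and OS02G0662000 was 0.75 to 1.25, against 5.03 to 8.87 in the other 9 libraries. In seedling RNA, fewer cells of a tissue and less RNA per cell cannot be told apart. The SALT levels, the list medians and the r values that these libraries move most are given with and without them.

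SALT was among the most abundant transcripts of the seedlings. In pkg Br-cGMP it stood at 2573, 2209 and 1717 FPKM in libraries 1, 2 and 3. In wild type Br-cGMP it stood at 520.3, 1555 and 1743 FPKM. In pkg control it stood at 2218, 4539 and 502 FPKM, and in wild type control at 541, 499.6 and 419 FPKM. The 3 wild type control libraries were all low, the 3 pkg Br-cGMP libraries were all high, and each of the other groups held both kinds. There were 5 libraries between 419 and 541 FPKM and 7 between 1555 and 4539 FPKM, with a gap of 2.87-fold between the sets and no library in it. The low set held 4 wild type libraries and 1 pkg library, and the high set 2 wild type and 5 pkg libraries.

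Counting error was small beside these steps. The SALT reads numbered 30389 in pkg control 2, the highest, and 2104 in wild type control 3, the lowest. In pkg control 2 they made up 0.333% of all recovered reads. The exact Poisson interval (95%) ran from 4488 to 4590.3 FPKM in pkg control 2 and from 401 to 437 FPKM in wild type control 3. It covers counting error only. Across the 12 libraries the rank of SALT by FPKM among the reference genes ran from 2 to 262, and the highest library held 10.8 times the FPKM of the lowest.

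**Figure D1:**
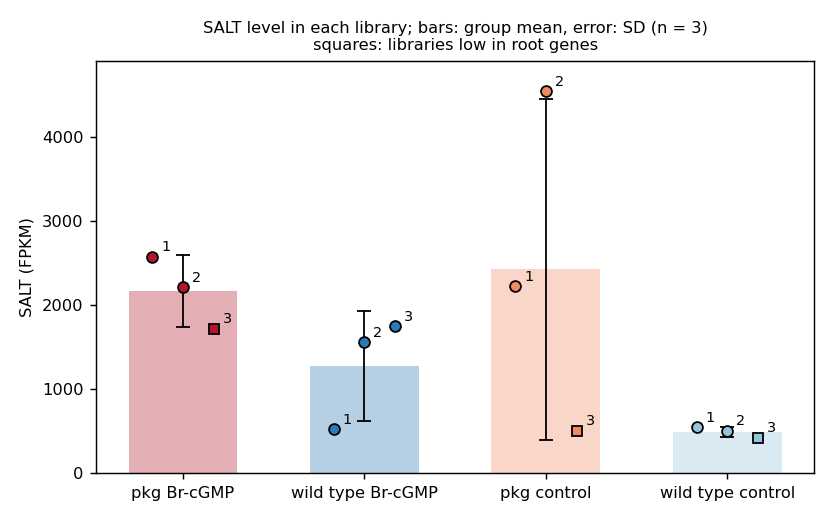
SALT level in FPKM (vertical axis) in each of the 12 libraries, by group; bars are group means, error bars the SD over 3 libraries, numbers the replicate and squares the 3 libraries low in root genes. The wild type control libraries sit between 419 and 541 FPKM, while pkg control spans 502 to 4539 FPKM.

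The group means were 2166 ± 429.7 FPKM in pkg Br-cGMP, 1273 ± 658 in wild type Br-cGMP, 2419.9 ± 2026 in pkg control and 486 ± 62.3 in wild type control (SD, n = 3 each). By mean, pkg control came highest and was followed by pkg Br-cGMP, wild type Br-cGMP and wild type control. The step between the highest pair, 254 FPKM, was far inside the SD of pkg control, so these neighbours did not differ beyond their spread. The steps between pkg Br-cGMP and wild type Br-cGMP, 893 FPKM, and between wild type Br-cGMP and wild type control, 786 FPKM, were each larger than the SD of wild type Br-cGMP. That is no test, and single libraries overlapped across both steps. The pkg Br-cGMP 3 library (1717 FPKM) lay below wild type Br-cGMP 3 (1743 FPKM). Wild type Br-cGMP 1 (520.3 FPKM) lay inside the range of wild type control. Without the 3 libraries low in root genes the means were 2391 FPKM in pkg Br-cGMP (n = 2), 1273 in wild type Br-cGMP (n = 3), 3379 in pkg control (n = 2) and 520.3 in wild type control (n = 2), in the same order.

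The differences between groups are given on the log2(FPKM + 1) scale with the standard error of a limma fit over all features. In pkg against wild type without Br-cGMP, SALT averaged 10.75 in pkg and 8.92 in wild type, a difference of 1.83 ± 0.70. The pkg library was the higher one in 8 of 9 pairs of libraries, the exception being pkg control 3 against wild type control 1. Of 8273 tested reference genes with a mean of at least 5 FPKM, 1.47% showed a larger difference in either direction. This share and those given below for the other comparisons are no p. SALT was chosen with its values known, and it varied more within groups than 85.7% of these genes. Without pkg control 2, the library highest in SALT, the difference was 1.12. Without pkg control 3 it was 2.71, and without the 3 libraries low in root genes 2.61.

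In wild type, SALT averaged 10.13 with Br-cGMP and 8.92 without it, a difference of 1.21 ± 0.70, and 7.33% of the same genes differed by more. Wild type Br-cGMP 2 and 3 stood above all wild type control libraries, whereas wild type Br-cGMP 1, at 520.3 FPKM, lay inside their range. Without that library the difference was 1.76, and without wild type Br-cGMP 3 it was 0.89.

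Under Br-cGMP, SALT averaged 11.06 in pkg and 10.13 in wild type, a difference of 0.93 ± 0.70, with 15.9% of genes differing by more. The pkg library was higher in 8 of 9 pairs of libraries. Without wild type Br-cGMP 1 the difference was 0.38.

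In pkg, SALT averaged 11.06 with Br-cGMP and 10.75 without it, a difference of 0.32 ± 0.70, and the groups overlapped. The mean FPKM with Br-cGMP was 0.895 times that without it, so the mean of FPKM and the mean of log2 levels differ in sign. Same-numbered pkg libraries deviated together across features, and their pairs are set side by side as a description. The labels do not state a pairing. Pair 1 had 2573 FPKM with Br-cGMP and 2218 without, pair 2 had 2209 with and 4539 without, and pair 3, both low in root genes, had 1717 with and 502 without. The log2 differences of the pairs were 0.21, -1.04 and 1.77, so they did not share a sign. Without pkg control 3 the mean difference was -0.57, without pkg control 2 it was 1.02, and without the 3 libraries low in root genes -0.41.

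The Br-cGMP difference in pkg minus that in wild type was -0.90 ± 0.99, so its error was larger than its size. These comparisons share libraries. The pkg control group serves in the pkg response and in the genotype difference without Br-cGMP. Wild type control serves in the wild type response and in that genotype difference. Each Br-cGMP group likewise serves in its response and in the genotype difference under Br-cGMP.

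The spread of SALT between libraries of 1 group was large for so abundant a gene. Its residual SD within groups was 0.96 on the log2 scale, against a median of 0.41 over the 8273 reference genes, of which 85.7% varied less. Among 1502 reference genes with a mean log2 level of at least that of 100 FPKM the median was 0.36, and 93.1% varied less than SALT. The pkg control group contributed most, with an SD of 1.62, followed by wild type Br-cGMP at 0.96, pkg Br-cGMP at 0.29 and wild type control at 0.19.

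The neighbours of SALT on chromosome 1 had other patterns. OS01G0348800, on the side of the chromosome's start, was listed at 0.819 FPKM or less in every library. OS01G0348700 stood between 166 and 404 FPKM, with its highest value in wild type control 2, and OS01G0349000 between 27.6 and 46.2 FPKM. The Pearson r of their log2 levels with SALT over the 12 libraries was 0.01 for OS01G0348700, 0.28 for OS01G0349000 and 0.20 for OS01G0349400, and without the 3 libraries low in root genes -0.20, -0.07 and -0.07. None of the 4 has a symbol in the files.

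Likeness to SALT was measured as Pearson r of log2(FPKM + 1) over the 12 libraries, among 8273 reference genes with a mean of at least 5 FPKM. The points share their libraries and depth, and genes were picked by r itself, so r is a description. Over all these genes the median r was -0.01 and the 5th and 95th percentiles were -0.58 and 0.55. There were 11 genes at 0.8 or above and 7 at -0.8 or below. The 12 highest had r from 0.78 to 0.91, and the gene ranked 13 had 0.78 as well, so the border of this set is arbitrary. Because SALT splits the libraries into a low and a high set, r was also taken within the 7 high libraries, where it ran from 0.16 to 0.95 over the 12 genes and was at least 0.5 for 6 of them. The 5 low libraries are too few for an r. Within groups, as deviations from the group means, r ran from 0.62 to 0.91.

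GABA-T (OS02G0112900), named for the transaminase that breaks down gamma-aminobutyrate, was most like SALT, with r = 0.91 and Spearman's rho 0.90. It stood at 5.63, 8.29 and 3.85 FPKM in pkg Br-cGMP, at 0.0, 0.392 and 2.70 FPKM in wild type Br-cGMP, at 5.26, 58.8 and 0.0 FPKM in pkg control and at 0.0, 0.216 and 0.0 FPKM in wild type control. The library with most SALT, pkg control 2, thus also held most GABA-T, at 921 reads, and 4 of the 5 libraries low in SALT were listed at 0 for GABA-T. Its r was 0.91 without the 2 libraries farthest from the SALT median (wild type control 2 and 3), 0.90 without the 3 libraries low in root genes, 0.90 within groups and 0.95 in the 7 high libraries. GABA-T met the minimum mean of 5 FPKM through pkg control 2: its mean was 7.09 FPKM over all libraries and 2.39 FPKM over the other 11.

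OS11G0592000 (chromosome 11, 22502008 to 22502923), for which the files give no symbol, came next with r = 0.87 and rho 0.88. It stood at 836, 853 and 396 FPKM in pkg Br-cGMP, 132, 434 and 233 FPKM in wild type Br-cGMP, 338, 1361 and 128 FPKM in pkg control and 229.7, 191 and 29.9 FPKM in wild type control. Its highest library was again pkg control 2, and its lowest was wild type control 3, as for SALT. Its r was 0.87 without the 3 libraries low in root genes, 0.76 within groups and 0.80 in the 7 high libraries.

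Of the 12 genes most like SALT, 10 had no symbol in the files, and they lay on 5 chromosomes, with 5 on chromosome 8 and 4 on chromosome 2. The second symbol among the 12 was BRL3, a receptor kinase of the brassinosteroid receptor family, with r = 0.78 over all libraries and 0.17 in the 7 high ones. BRL3 was low throughout, from 2.97 FPKM in pkg control 3 to 9.92 FPKM in pkg Br-cGMP 2.

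**Figure D2:**
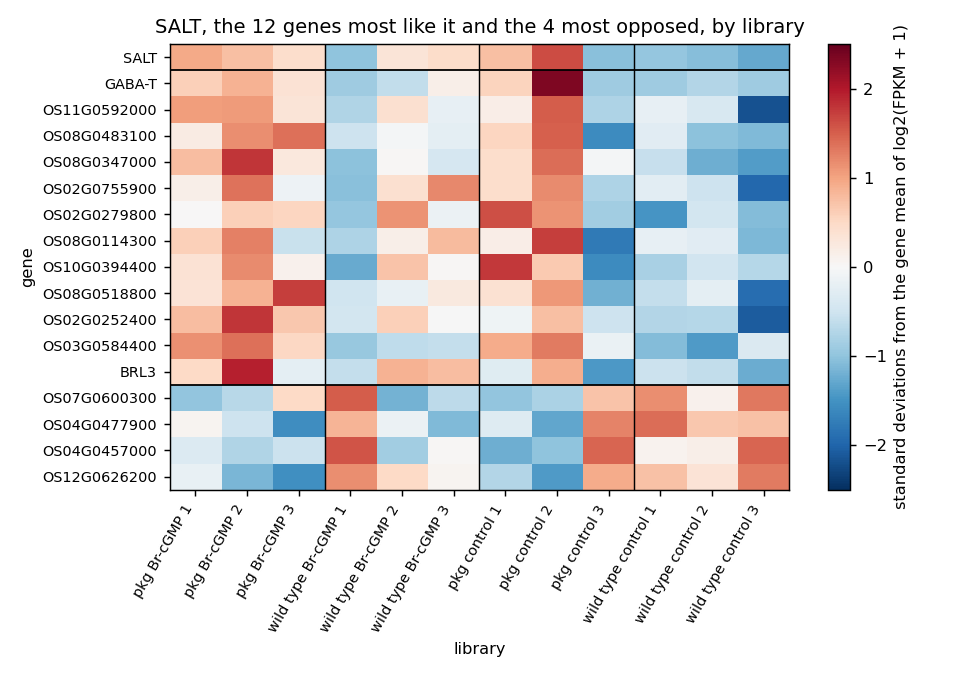
Level of SALT (top row), of the 12 reference genes with the highest Pearson r with it and of the 4 with the lowest r, in each library (columns, by group), in standard deviations from the gene's own mean of log2(FPKM + 1). pkg control 2 is high and pkg control 3 and wild type control 3 are mostly low across the upper block, and the 4 opposed genes have r from -0.84 to -0.83.

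Beyond the 12, the reference genes with a symbol that were most like SALT were OAT, ornithine aminotransferase of arginine and proline metabolism (r = 0.76), the actin-related protein gene ARP4 (0.76), the chitinase genes CHT3 (0.76) and CHT1 (0.73), NBS1 (0.74), the heat stress factor gene HSFB1 (0.73), the invertase gene NIN1 (0.72) and CIPK16, a CBL-interacting kinase (0.71). OAT ranged from 16.7 FPKM in wild type control 3 to 52.1 FPKM in pkg Br-cGMP 2. In the 7 high libraries r was 0.62 for CHT1, 0.55 for ARP4 and 0.43 for OAT, but 0.28 for CHT3, -0.02 for HSFB1 and CIPK16 and -0.44 for NIN1. Among those libraries HSFB1, CIPK16 and NIN1 thus did not follow SALT.

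Over the 12 libraries, some genes ran opposite to SALT. The lowest r, -0.84, was that of OS12G0626200, at 5.82, 2.72 and 1.87 FPKM in pkg Br-cGMP, 15.1, 9.51 and 6.97 FPKM in wild type Br-cGMP, 3.79, 2.12 and 12.8 FPKM in pkg control and 11.2, 8.53 and 16.6 FPKM in wild type control. OS04G0457000 had r = -0.84 as well, and its highest libraries were wild type Br-cGMP 1 (128 FPKM), pkg control 3 and wild type control 3 (124 FPKM each), all low in SALT. With symbols, the lowest were DAPB1, dihydrodipicolinate reductase of lysine synthesis (-0.75), RNC1, a splicing factor of chloroplast introns (-0.72), MSRA5, a methionine sulfoxide reductase (-0.72), and STLP2 (-0.72). In the 7 libraries high in SALT these r were weaker: -0.49 for OS12G0626200 and -0.34 for OS04G0457000. There r was -0.42 for DAPB1, -0.32 for MSRA5 and -0.24 for RNC1, and for STLP2 the sign turned (0.14).

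**Figure D3:**
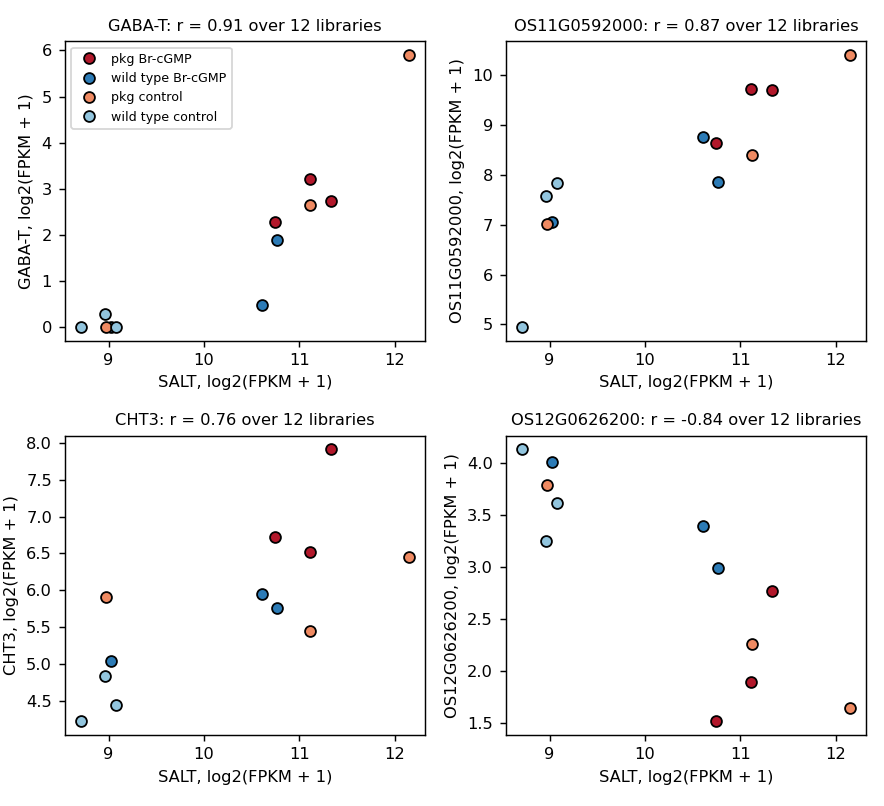
Level of GABA-T, OS11G0592000, CHT3 and OS12G0626200 (vertical axes) against SALT (horizontal axes), all as log2(FPKM + 1), 1 point per library, coloured by group. The points fall into a low set of 5 libraries and a high set of 7 by SALT, and r over the 12 libraries is 0.91, 0.87, 0.76 and -0.84.

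Jasmonate synthesis genes showed a mixed likeness to SALT. Of 19 listed genes, 11 could be tested (at least 1 FPKM in at least 3 libraries) and 3 were listed at 0 throughout. Of all 37830 reference genes, 15025 were listed at 0 in every library, and why was not tested. The r of the 11 genes tested had a median of 0.24, with 8 of 11 above 0. Over all 25238 features tested the median was 0.01 and 50.6% lay above 0. Without the 3 libraries low in root genes the median of the list was 0.08, with 8 of 11 above 0, and that over all features -0.02. The highest were the allene oxide synthase genes CYP74A3 (0.63, and 0.46 without those libraries) and CYP74A2 (0.51, and 0.58) and the lipoxygenase gene CM-LOX2 (0.56, and 0.47). The 3 most abundant members had a lower r: the lipoxygenase LOX1.1 0.20, DAD1 0.01 and the OPDA reductase OPR7 -0.01. DAD1 entered by its symbol alone, which is also used for a subunit of oligosaccharyltransferase. With a listed feature length of 750 bases it may not be a jasmonate gene, and the counts and medians of the list include it. CYP74A2 stood at 81.6, 180.5 and 138 FPKM in pkg Br-cGMP, 73.1, 85.2 and 105 FPKM in wild type Br-cGMP, 42.4, 95.3 and 77.0 FPKM in pkg control and 35.02, 38.7 and 65.2 FPKM in wild type control. All 6 libraries with Br-cGMP lay above the 3 wild type control libraries, also wild type Br-cGMP 1, where SALT was low. Within groups its r with SALT was 0.05.

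By limma, 0 of these 11 genes passed in either Br-cGMP response, where 0% of the 25238 features passed. With an unadjusted p under 0.05 there were 1 of 11 in the pkg response, 3 in the wild type response, 0 in pkg against wild type under Br-cGMP and 2 without it. Over all features the share at that threshold was 2.71% in the pkg response, 5.33% in the wild type response, 9.47% in pkg against wild type under Br-cGMP and 5.22% without it, and the counts of the other lists below are to be read against the same shares. Likewise 0 of 11 passed in pkg against wild type under Br-cGMP or without it, where 0.341% of features passed in each, nor in the difference of the responses, where 0.00396% passed. The median difference was 0.38 in the pkg response and 1.19 in the wild type response, against -0.01 over all features in each. In the same order the medians were 0.59 and 1.24 for phytoalexin genes and 0.64 and 0.98 for NAC and WRKY factors. They were 0.26 and 0.76 for the chitinase list and 0.14 and 0.22 for salt and osmotic genes. Abscisic acid genes had -0.16 and -0.70. The root markers had a median difference of 0.16 in the pkg response and 2.87 in the wild type response, and wild type control 3, low in root genes, was the lowest library for CYP74A3 (0.633 FPKM) and CM-LOX2 (3.12 FPKM). Without the 3 libraries the median of the synthesis list was 0.32 in the pkg response and 0.96 in the wild type response, and that of the root markers 0.12 and 0.61. The medians were then 0.73 and 0.87 for phytoalexin genes and 0.38 and 0.49 for NAC and WRKY factors. They were -0.14 and 0.83 for the chitinase list, 0.27 and 0.23 for salt and osmotic genes and -0.28 and -0.21 for abscisic acid genes. The part of root tissue in these differences was not tested. CYP74A2 stood at 0.89 ± 0.37 in pkg (adjusted p = 1) and 0.94 ± 0.37 in wild type (adjusted p = 0.882).

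Jasmonate signalling genes also had a mixed likeness to SALT. Of 16 listed, 13 were tested, with a median r of 0.12 and 11 of 13 above 0. Without the 3 libraries low in root genes the median was 0.19, with 8 of 13 above 0. The repressor TIFY11D (0.52) and NINJA1, the adaptor of these repressors (0.50), had the highest r, and the repressor TIFY6A (-0.61) the lowest. TIFY10B, the most abundant of the list, had 0.12, and the receptor genes COI1A and COI1B had 0.25 and 0.03, and 0.43 and 0.36 without those libraries. TIFY11D stood at 39.5, 50.8 and 128 FPKM in pkg Br-cGMP, 45.0, 47.9 and 127 FPKM in wild type Br-cGMP, 24.8, 52.2 and 24.6 FPKM in pkg control and 36.1, 21.3 and 14.3 FPKM in wild type control. Its highest values were those of library 3 of both Br-cGMP groups, not those of the libraries highest in SALT. None of the 13 passed in any of the 5 comparisons by limma, and 2 of 13 in the wild type response and 0 of 13 in the pkg response had an unadjusted p under 0.05. The median difference was 0.28 in wild type and 0.14 in pkg, and without the 3 libraries 0.45 in wild type and -0.02 in pkg, where the sign turned.

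Abscisic acid and dehydration genes, another route by which SALT is known to be induced, had a median r whose sign depended on the libraries low in root genes. Of 21 listed, 9 were tested and 6 were listed at 0 throughout. Their median r was -0.24 over all libraries, with 4 of 9 above 0, and 0.11 without the 3 libraries, with 5 of 9 above 0. LTI6A, a low-temperature membrane protein gene, had -0.53, and -0.81 without the 3 libraries. The abscisic acid synthesis gene NCED1 had -0.24, and 0.15 without them. NCED2, of the same step, had -0.52 over all libraries, and the dehydrin genes RAB21 and RAB16D had 0.03 and 0.46. For RAB21 r was -0.23 without the 3 libraries. RAB21 was highest in wild type control 1, at 69.7 FPKM, a library low in SALT, and second in pkg control 2, at 53.5 FPKM, the library highest in SALT. None of the 9 passed by limma in any comparison, with an unadjusted p under 0.05 for 0 of 9 in the pkg response, 1 in the wild type response, 2 in pkg against wild type under Br-cGMP and 1 without it. Salt and osmotic stress genes, which include HKT transporters, betaine aldehyde dehydrogenases, trehalose phosphatases and DREB factors, had a median r of 0.08 over 21 tested of 29, and -0.01 without the 3 libraries. Their highest r was 0.48 (DREB1D) and their lowest -0.42, BADH1 had 0.44 and BADH2 0.08, and none passed by limma, with an unadjusted p under 0.05 for 1 of 21 in the pkg response, 3 in the wild type response, 2 in pkg against wild type under Br-cGMP and 1 without it. The tested TPP2 (OS02G0664300, listed length 4750 bases) entered by a symbol that OS10G0553300, listed at 0, also carries. It may not be a trehalose phosphatase, and the counts and medians of the list include it.

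Several chitinase genes were among those most like SALT. Of 12 chitinase and other pathogenesis-related genes listed, 10 were tested, with a median r of 0.42, 8 of 10 above 0, and CHT3 (0.76), CHT1 (0.73) and CHT8 (0.69) highest. Without the 3 libraries low in root genes the median was 0.24, with 7 of 10 above 0, and r was 0.78 for CHT3, 0.79 for CHT1 and 0.56 for CHT8. Within groups r was 0.45 for CHT3 and CHT1 and 0.50 for CHT8, and in the libraries high in SALT it was 0.10 for CHT8. The lowest r of the list over all libraries were those of CHT9 (0.15), CHT6 (0.02), RIXI (-0.08) and CHT12 (-0.25). Chitinases cleave the chitin of fungal walls. CHT3 stood at 240.1, 90.5 and 104 FPKM in pkg Br-cGMP, 31.9, 60.8 and 53.3 FPKM in wild type Br-cGMP, 42.7, 86.9 and 59.1 FPKM in pkg control and 20.7, 27.6 and 17.7 FPKM in wild type control. As for SALT, wild type control was the lowest group, but pkg control 3, low in SALT, had more CHT3 than any wild type control library. CHT1 and CHT3 lie next to each other on chromosome 6, at 30890834 to 30892050 and 30887215 to 30888383, and reads from like stretches of the pair may have been counted for either.

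At an unadjusted p under 0.05 by limma there were 2 of 10 in the pkg response and 4 in the wild type response. In pkg against wild type there were 4 under Br-cGMP and 3 without it. The shares over all features were 2.71%, 5.33%, 9.47% and 5.22% in the same order. After adjustment 1 of the 10 passed, in pkg against wild type, where 0.341% of features passed with Br-cGMP and 0.341% without. It was CHT11 (OS03G0132900), at 98.7, 71.2 and 203 FPKM in pkg Br-cGMP, 19.3, 32.05 and 15.8 FPKM in wild type Br-cGMP, 99.5, 153 and 124 FPKM in pkg control and 19.0, 16.7 and 30.9 FPKM in wild type control. All pkg libraries lay above all wild type libraries. CHT11 rose to 126 ± 27.0 FPKM in pkg control, against 22.2 ± 7.64 FPKM in wild type control (SD, n = 3 each), a difference of 2.47 ± 0.40 (limma adjusted p = 0.0315). With Br-cGMP it rose to 124 ± 69.5 FPKM in pkg, against 22.4 ± 8.54 in wild type (2.34 ± 0.40, limma adjusted p = 0.046). The call ended under 11 of 21 alternatives without Br-cGMP, at a limma adjusted p from 0.0115 to 0.174 over all of them, and under 17 of 21 with it, from 0.035 to 0.23. It ended without any one of 5 of the 6 control libraries (all but wild type control 3) and, with Br-cGMP, without any one of 5 of the 6 treated libraries (all but pkg Br-cGMP 2). Leaving out libraries that were not compared also ended it. The call with Br-cGMP ended without any one of the 6 control libraries. The call without Br-cGMP ended without pkg Br-cGMP 1 or wild type Br-cGMP 1. Unlike SALT, CHT11 was high in pkg control 3, and its r with SALT was 0.57 over the 12 libraries, 0.85 without the 3 libraries low in root genes and -0.01 within groups. In wild type the Br-cGMP difference was -0.000597 ± 0.40 for CHT11 (limma adjusted p = 1) and 1.21 for SALT, and the gap between the genes was not tested.

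Diterpenoid phytoalexin genes had a median r of 0.38 over 9 tested of 18, all 9 above 0, led by the synthase gene KSL10 (0.73), which was under 5 FPKM in every library. Without the 3 libraries low in root genes the median was 0.11, with 6 of 9 above 0. The most abundant member, the cytochrome P450 gene CYP99A3, stood at 2.05 FPKM or less in those 3 libraries and at 38.2 FPKM or more in the others, and its r was 0.38 with them and 0.02 without. NAC and WRKY factors had a median of 0.44 over 7 tested of 11, all 7 above 0, and 0.34 without the 3 libraries, again all 7 above 0, with WRKY76 at 0.63 and NAC74 at 0.52. None of these 16 genes passed by limma in any comparison. With an unadjusted p under 0.05 there were 0 of 9 phytoalexin genes in the pkg response and 1 in the wild type response, and 2 of 7 factors in the pkg response and 3 in the wild type response. WRKY76 stood at 131, 112 and 262 FPKM in pkg Br-cGMP, 72.6, 64.4 and 136 FPKM in wild type Br-cGMP, 71.1, 121 and 95.6 FPKM in pkg control and 12.99, 25.9 and 46.5 FPKM in wild type control. The 3 wild type control libraries were the lowest of the 12, whereas for SALT wild type Br-cGMP 1 and pkg control 3 lay inside the wild type control range. The r of WRKY76 with SALT within groups was 0.03.

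**Figure D4:**
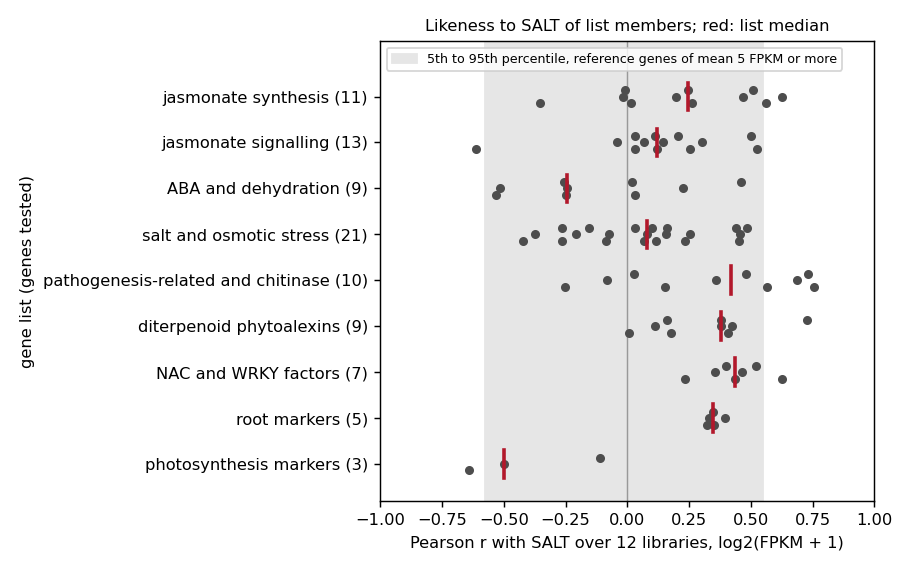
Pearson r with SALT over the 12 libraries (horizontal axis) of each tested member of 9 gene lists (rows, number tested in brackets); red bars are list medians and the grey band is the 5th to 95th percentile of 8273 reference genes, -0.58 to 0.55. The pathogenesis-related, NAC and WRKY and phytoalexin lists have medians from 0.38 to 0.44, the abscisic acid list -0.24 and the 3 photosynthesis markers -0.50, all over 12 libraries.

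Transcripts of root and of photosynthetic tissue were both present under the label of seedling, at levels that differed between libraries. LSI2, a silicon exporter of roots, was at 41.7, 452 and 0.181 FPKM in pkg Br-cGMP, 187, 345 and 201 FPKM in wild type Br-cGMP, 126, 129 and 0.0 FPKM in pkg control and 189, 148 and 0.196 FPKM in wild type control. The 5 root markers all had r with SALT between 0.32 and 0.40 over the 12 libraries. Of the 3 libraries low in these genes, 2 were low in SALT (pkg control 3 and wild type control 3) and 1 was high (pkg Br-cGMP 3, 1717 FPKM). Of the 9 others, 3 were low in SALT, and without the 3 libraries r was -0.19 for LSI2 and 0.08 for MT4C, with a median of -0.02 over the 5 markers. Of 9 photosynthesis markers listed, 3 were tested and 5, CAB1R and CAB2R among them, were listed at 0 throughout. So were 15025 of the 37830 reference genes, and a listed 0 is not read here as absence of the transcript. All 3 markers tested had a negative r over the 12 libraries, from -0.64 to -0.11. For RBCS, of the Rubisco small subunit, r was -0.11 with the 3 libraries low in root genes and 0.30 without them, and the median of the 3 was -0.50 and -0.41. PSAH, a photosystem I subunit gene with r = -0.64, ranged from 1668 FPKM in pkg control 1 to 4956 FPKM in wild type control 3. In the 7 high libraries its r was -0.02. The part of tissue shares in the SALT levels was not tested.

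**Figure D5:**
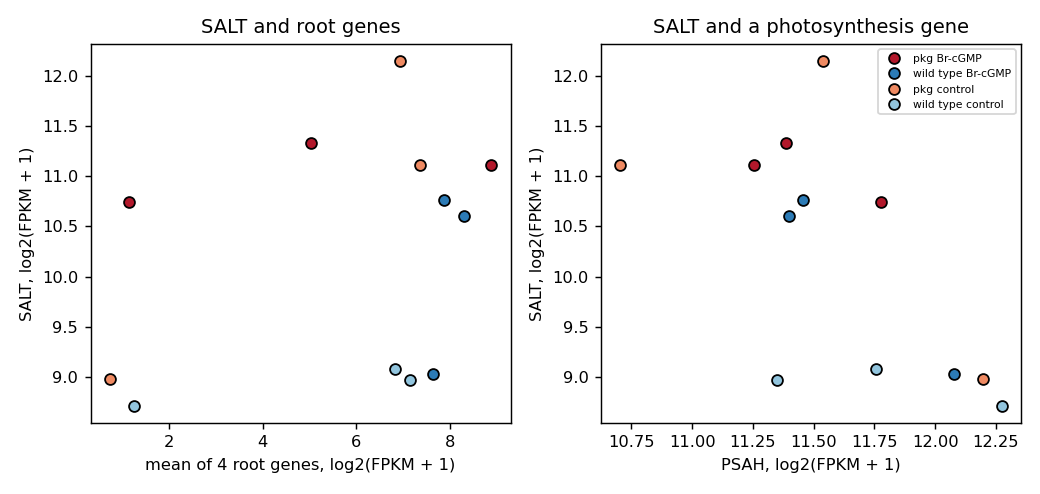
SALT level against the mean level of 4 root genes (left) and against the photosynthesis gene PSAH (right), all as log2(FPKM + 1), 1 point per library, coloured by group. The 3 libraries with a root mean of 0.75 to 1.25 include both low and high SALT, and 3 libraries with root means of 6.83 to 7.64 are low in SALT.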

How the data were processed

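The authors deposited 1 file per library with a value for each of 112071 features. CASAVA 1.8 and HISAT2 are named in the submitters' processing notes; the build, annotation and counting program, and how multiply matching reads were handled, were not given in the sources used. The files state no unit. The deposited values were read as FPKM from their structure. Multiplied by feature length, 100% of the values above 0 came to whole reads (tolerance 0.01) once divided by a constant of the library. That cannot tell FPKM from another unit scaled by feature length and a library constant. The library size implied by FPKM was 0.971 times the recovered reads in pkg control 3, the lowest, and 1.10 times in pkg control 1, the highest. Values were joined in Python 3.11.15 (pandas 2.3.3), and SALT, its correlates and the lists were read from log2(FPKM + 1). Differences come from limma 3.58.1 (R 4.3.3) with trended, robust moderation on 12 libraries, group means as coefficients, 25238 features that reached 1 FPKM in 3 or more libraries, and Benjamini-Hochberg adjustment over all of them at 0.05. The procedure was tested on simulated reads. The series calls its libraries biological repetitions without saying how they were separated, so a p reflects library spread, which may be partly technical.

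SALT, the lists and the tests were chosen with earlier results of these data known. Named are SALT, the 12 highest and 4 lowest genes by r, the 10 highest and 4 lowest with a symbol, each list's 4 most abundant and 3 most correlated members, called members, neighbours and root genes; not all are printed, and unnamed identifiers are mostly given as counts. A planned list of other jacalin-related lectins needed product names and was dropped. The RefSeq table matched 1 row to SALT by synonym and 1 reference gene identifier, so it gave no other names. Same-numbered pkg libraries with and without Br-cGMP deviated together (r of 0.36, 0.31 and 0.34 for numbers 1, 2 and 3); the pairing comes from the data, as the labels give the number only, and no other comparison had all 3 above 0.1. Number 3 of pkg control and wild type control, both low in root genes, had r = 0.41. Whether the low root genes of number 3 gave the shared deviations of the pkg libraries was not tested.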

Additional observations from a re-analysis of the deposited data

How the results depend on the processing

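All 61 alternatives of the SALT differences moved them by less than the SD within groups (0.96 log2), which is wide. The sign of the pkg response turned with group medians (-0.01), without the 3 libraries low in root genes (-0.41) and without pkg control 3 (-0.57). Over single libraries left out, the SALT difference ranged from -0.57 to 1.02 in the pkg response, from 0.89 to 1.76 in the wild type response, from 0.38 to 1.25 and from 1.12 to 2.71 in pkg against wild type with and without Br-cGMP, and from -1.78 to -0.20 for the difference of the responses.

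Of the 12 genes most like SALT, 4 remained among the 12 highest without the 2 libraries farthest from the SALT median, 6 without the 3 libraries low in root genes, 3 by deviations from the group means and 4 to 11 without single libraries (4 without pkg control 3).

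Leaving the 3 libraries low in root genes out of the list medians of r and of differences was chosen after seeing the data. It turned the sign of the median r of the abscisic acid list (0.11), of the salt and osmotic list (-0.01), of the root markers (-0.02) and of all features (-0.02).

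Features called numbered 0 in the pkg response (685 at an unadjusted p under 0.05; limma-voom 0; 0 to 2 without single libraries) and 0 in the wild type response (1346; limma-voom 0; 5 with no filter, 2 with a pseudocount of 0.1, 4 with no trend and no robust step, 0 to 1 without single libraries). In pkg against wild type under Br-cGMP there were 86, against 40 at 5 FPKM or more, 35 without the 3 libraries low in root genes, 8 with reference genes alone and 51 to 200 without single libraries. Without Br-cGMP there were 86, against 51, 29, 12 and 49 to 88 under the same settings. The difference of the responses had 1, against 2 with no filter or a pseudocount of 0.1, 0 at 5 FPKM or more, by both limma-voom fits, without the 3 libraries and with reference genes alone, and 1 to 3 without single libraries. With the replicate block the counts were 0, 0, 80, 81 and 1, and the SALT differences were the same by construction. Under the block CHT11 lost both calls (limma adjusted p = 0.0861 with Br-cGMP and 0.0675 without), in comparisons whose numbers do not pair the libraries. The cause of these changes was not tested. Depth does not limit SALT itself, with at least 2104 reads in a library, but does limit GABA-T.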
